A study of Saccharomyces cerevisiae with 11 samples.

Results

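The genes described here encode the enzymes that carry glucose through glycolysis to ethanol and glycerol in baker's yeast. They also include the enzymes that make and remove fructose 2,6-bisphosphate and 4 transcription factors of the pathway. The set holds 37 genes chosen by name, and a gene was measured through a probe set that the array's annotation assigns to it alone. Of the 37 genes, 36 have such a probe set and all 36 were among the 5597 genes tested, out of 5656 genes with a probe set of their own. The remaining gene, TDH2, was read only through probe sets it shares with its copies. ADH4 and GCR2 each had a further probe set of low signal, at 0.6 to 9.9 and 5 to 17.5 intensity units, which was not used in the main test.

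RNA was measured on 11 Affymetrix arrays from anaerobic, glucose-limited cultures of Saccharomyces cerevisiae in synthetic medium with an antifoaming agent. The strain was CEN.PK113-7D, a prototroph, with the genotype MATa MAL2-8c SUC2 in all groups. The control group was 3 independent chemostats growing at 0.025 per hour. The other 4 groups came from 2 independent retentostats, which are fed like a chemostat but keep their cells behind a filter, and both were sampled after 2, 9, 16 and 22 days. The labels give growth rates of 0.0084, 0.0024, 0.0011 and 0.00063 per hour for these days, so the comparison follows cells as growth approaches a standstill. The 4 days of a retentostat are samples of the same culture, and every contrast with the chemostats uses the same 3 arrays. The samples were whole broth, in which fewer cells with a transcript and less of it per cell cannot be told apart.

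In glycolysis, hexokinases and glucokinase phosphorylate glucose, the upper enzymes split the sugar into trioses, and the lower enzymes oxidise these to pyruvate with a gain of ATP. Without oxygen, this is the cell's source of ATP. Pyruvate decarboxylase and alcohol dehydrogenase then form ethanol and use up the NADH that glycolysis makes, while glycerol formation uses up NADH left over from the making of new biomass. Many steps have isoenzymes from duplicated genes, some of them known for repression by glucose and some for high activity in fast fermentation.

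Day 9 replicate 1 stood apart from the other arrays. Its summed signal over the 36 genes was 181124 intensity units, against 107980 to 134175 on the other 10 arrays, and its brightest probe set read 22401, against 10096 to 17195. The ratio of the actin 5' to 3' probe sets, a sign of RNA quality, was 0.766 to 0.796 in the chemostats and lowest in replicate 2 of day 16 (0.472) and day 22 (0.341). These last 2 arrays are called the low-actin arrays below, and the actin covariate is the log2 of this ratio taken into the fit. All 8 retentostat arrays read 0.341 to 0.748 for this ratio, below all 3 chemostats. With the covariate, RNA quality and retentostat culture therefore cannot be told apart. The 5' to 3' ratio of a second control gene, TBP, did not set the low-actin arrays apart. It was 0.568 on day 16 replicate 2 and 0.476 on day 22 replicate 2, against 0.466 to 0.562 in the chemostats. Calls of the 36 genes that ended without day 9 replicate 1, without the low-actin arrays or with the covariate are named with their genes. Neighbouring genes outside the set were not rerun in these settings. Transcripts specific to a cells were present on every array, the lowest at 243 intensity units (STE6), and the label gives the strain as MATa. All 4 alpha-specific transcripts were called higher at days 9, 16 and 22, MF(ALPHA)1 from 147 to 194 in the chemostats to 1733 and 2049 on day 22. Of the 5 transcripts specific to a cells, 2 were called higher on each of these days, MFA2 among them, and 0 lower. Over all genes, 22.4%, 26.6% and 31.8% were called higher on these days. The part of any change in mating type in the results was not tested.

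Genes of the set went up and down side by side, and most did not pass the test on any given day. At day 2, only PDC6 was called (higher), with limma's adjusted p under 0.05, where 1.05% of all genes tested were called higher and 0.5% lower. At day 9, 8 of 36 genes rose and 3 fell, against 22.4% and 15.6% of all genes. At day 16, 6 rose and 6 fell (all genes 26.6% and 12.8%), and on day 22, 5 rose and 5 fell (all genes 31.8% and 10.8%). The share of the set called higher was therefore 22.2%, 16.7% and 13.9% at days 9, 16 and 22, and the share called lower 8.33%, 16.7% and 13.9%. At day 9 the share called higher was at the background and the share called lower was under it. At days 16 and 22 the share called higher was under the background and the share called lower was slightly over it, with no test of these differences made.

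Across all genes the log2 change had a median of 0.04, 0.06, 0.14 and 0.23 at days 2, 9, 16 and 22. The changes of single genes below are given relative to this median, with their standard errors. The tests used the unshifted values. On the relative scale, the median of the set was 0.03, 0.24, -0.11 and -0.18 on these days. Over all 5 groups, 12 of 36 genes changed (all genes 39.5%), and over the 4 retentostat days 4 changed (all genes 11.8%), namely PDC1, PDC5, ADH2 and FBP26. Between day 2 and day 9 no gene of the set was called by limma, with 8 at an unadjusted p under 0.05, where 3.56% of all genes were higher and 2.25% lower. Between day 9 and day 22 none was called either, again with 8 at an unadjusted p under 0.05, where 1.43% of all genes were higher and 0.143% lower.

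The split into rises and falls depended on how arrays were scaled to each other. With quantile normalization, 3 genes rose and 6 fell on day 9, 4 rose and 7 fell on day 16, and 4 rose and 8 fell on day 22. With each array scaled to the same median, the splits were 6 and 3, 4 and 7, and 3 and 10. Over all genes on day 22, the deposited scaling gave 1782 rises and 604 falls, quantile normalization 1161 and 1096, and median scaling 1005 and 1130. FBP26, GPP1, HXK2, PDC6 and PFK27 were called at days 9, 16 and 22. Altogether 19 genes were called on at least 1 day, and 17 on none. The shares of all genes meeting these rules were not counted, so neither count is set against a background. Without the low-actin arrays, 4 genes were called on day 16 (PDC1, PDC6, FBP26 and GCR1), 4 on day 22 (PDC1, PDC6, PFK26 and FBP26), 4 over the 5 groups and 0 over the 4 retentostat days. With the actin covariate the counts were 7, 4, 5 and 0. Over all genes the covariate gave 1489, 555, 1229 and 191 calls, against 2206, 2386, 2210 and 660 in the main fit. Calls over all genes fell as well without the low-actin arrays, where days 16 and 22 keep a single array each.

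**Figure D1:**
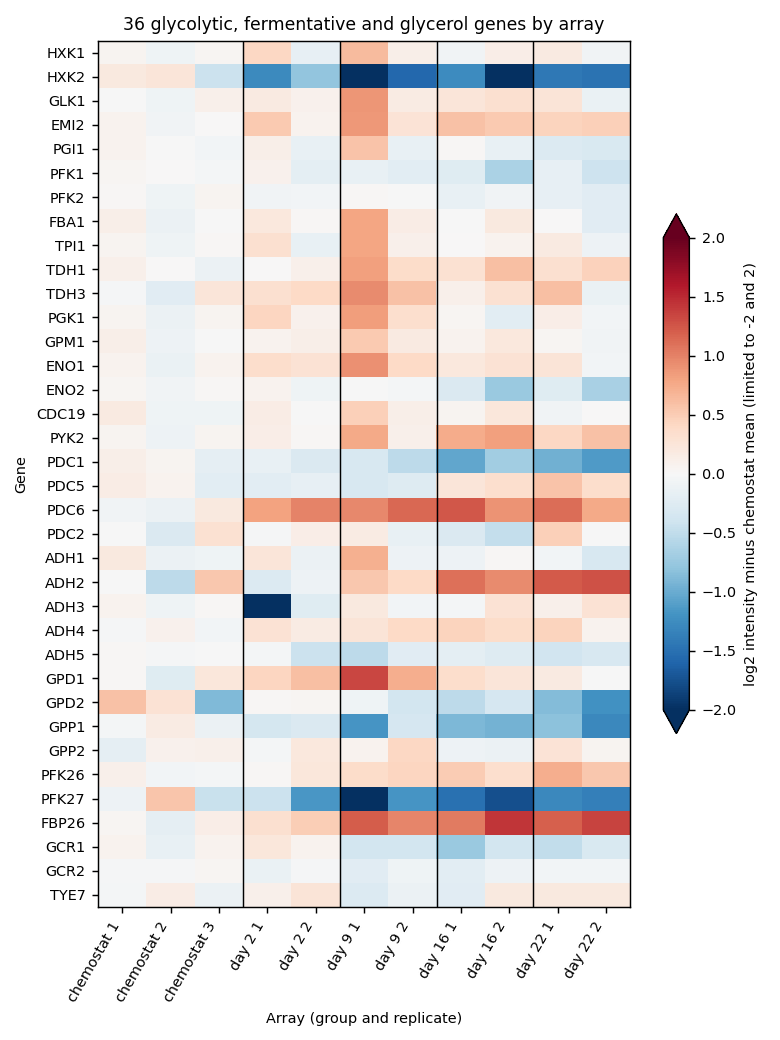
Heat map of the 36 genes (rows, ordered by step of the pathway) on the 11 arrays (columns, by group and replicate), coloured by log2 intensity minus the chemostat mean of the gene, with colours limited to -2 and 2. The rows of HXK2 and PFK27 are below the chemostat mean on all 8 retentostat arrays, those of PDC6 and FBP26 are above it on all 8, and day 9 replicate 1 is high in most rows of glycolytic enzymes.

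At the step from glucose to glucose 6-phosphate, HXK2 fell, EMI2 rose at days 9 and 16, and HXK1 and GLK1 were not called. HXK2 encodes the hexokinase that predominates in cells growing on ample glucose and also acts in glucose repression. Its signal was 1489, 1530 and 963 in the chemostats, 536 and 752 on day 2, 155 and 437 on day 9, 541 and 318 on day 16, and 480.4 and 466 on day 22. All 8 retentostat arrays lay below all 3 chemostats, and day 9 replicate 1 was the lowest. The log2 change was -1.07 on day 2, which did not pass the test (adjusted p = 0.233), and -2.38 ± 0.40 on day 9 (adjusted p = 0.00148). At day 16 it was -1.78 ± 0.40 (adjusted p = 0.00778) and on day 22 -1.69 ± 0.40 (adjusted p = 0.0132). The day 9 call held under all 24 alternatives, with adjusted p from 0.000411 to 0.0280. Its size rested on the 2 arrays unequally: as fitted, with no shift by the median, the day 9 change was -2.32, or -1.57 without day 9 replicate 1 and -3.07 without replicate 2. The calls at days 16 and 22 both ended without the low-actin arrays and with the actin covariate. The day 16 call also ended without day 16 replicate 2, and the day 22 call without either day 22 array.

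HXK1, the hexokinase repressed by glucose, and GLK1, the glucokinase, were not called on any day. HXK1 signal was 6528 to 11274 over the 11 arrays, and GLK1 signal was 3990 to 8042, both highest on day 9 replicate 1. EMI2, the paralogue of GLK1, had 1477, 1351 and 1413 in the chemostats, 2579 and 1716 on day 9, and 2129.9 and 2028 on day 16. It rose by 0.51 ± 0.20 on day 9 (adjusted p = 0.0406) and by 0.42 ± 0.20 on day 16 (adjusted p = 0.0445, with an interval of -0.02 to 0.86 once the median of all genes is taken off). Both EMI2 calls ended under quantile and median scaling, without the low-actin arrays, with the actin covariate and when any 1 chemostat was left out, and the day 9 call ended without day 9 replicate 1. A probe set that GLK1 shares with the locus YCL042W read 3172, 3209 and 1962 in the chemostats and 634 and 123 on day 22. That log2 difference of -3.28, not tested here, had no counterpart on the GLK1 probe set, which read 5238 and 3990 on day 22.

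No enzyme of upper glycolysis was called on any day. The 5 genes were PGI1 (phosphoglucose isomerase), PFK1 and PFK2 (the subunits of phosphofructokinase), FBA1 (aldolase) and TPI1 (triose phosphate isomerase). Their log2 changes ran from -0.10 to 0.08 on day 2, from -0.24 to 0.41 on day 9, from -0.57 to -0.04 on day 16 and from -0.52 to -0.19 on day 22. At day 22, PGI1 had the change -0.52 ± 0.20 (adjusted p = 0.273) and PFK1 -0.52 ± 0.17 (adjusted p = 0.185), and neither group of day 22 arrays overlapped the chemostats. PFK1 read 2813, 2758 and 2653 in the chemostats and 2442 and 2051 on day 22. After median scaling PFK1 was called lower at days 16 and 22 and PFK2 on day 22.

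In lower glycolysis, 4 of the 8 genes measured were called higher on day 9 (all genes 22.4%), and all 4 calls ended without day 9 replicate 1. The risen genes were TDH1 and TDH3 (glyceraldehyde 3-phosphate dehydrogenase), PGK1 (phosphoglycerate kinase) and ENO1 (enolase). TDH3 read 10020, 8633 and 12027 in the chemostats, 19574 and 15226 on day 9, and 15449 and 9271 on day 22. ENO1 read 8916, 7742.5 and 8884 in the chemostats, 16061 and 11254 on day 9, and 10119 and 8209.9 on day 22. For both genes the day 9 arrays lay above all chemostats, and on day 22 the groups overlapped. The day 9 log2 changes were 0.71 ± 0.23 for TDH3 (adjusted p = 0.0240), 0.60 ± 0.18 for ENO1 (adjusted p = 0.0162), 0.53 ± 0.18 for TDH1 (adjusted p = 0.0231) and 0.53 ± 0.19 for PGK1 (adjusted p = 0.0334). All 4 calls also ended under quantile normalization, and that of PGK1 without the low-actin arrays. TDH1 also missed the threshold with the replicate number as a block (adjusted p = 0.0647).

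The height of day 9 replicate 1 was general among the brightest genes of the set. Of the 14 genes of the set with a chemostat mean over 4000 intensity units, a limit chosen after the values were seen, all 14 were higher on replicate 1 than on replicate 2, by a median of 0.51 on the log2 scale. Of all 96 genes above that limit, 61 were higher on replicate 1 (median 0.21), and of all 5597 genes, 2286 (median -0.08). As fitted and with no shift by the median, the change of TDH3 on day 9 was 0.77 with the deposited scaling and 0.02 after quantile normalization. That of ENO1 was 0.66 and 0.02, and that of PGK1 0.59 and 0.06. Without day 9 replicate 1 the changes of TDH3, ENO1 and PGK1 were 0.59, 0.41 and 0.34, and without replicate 2 they were 0.95, 0.92 and 0.84. In the set and over all genes alike, fewer genes were called without replicate 1 than without replicate 2. Each of these fits has a single day 9 array. The sign of the day 9 change differed between the 3 scalings for HXK1, PFK2, FBA1, TPI1, GPM1, CDC19, PDC2, ADH1 and ADH3, none of which was called.

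**Figure D2:**
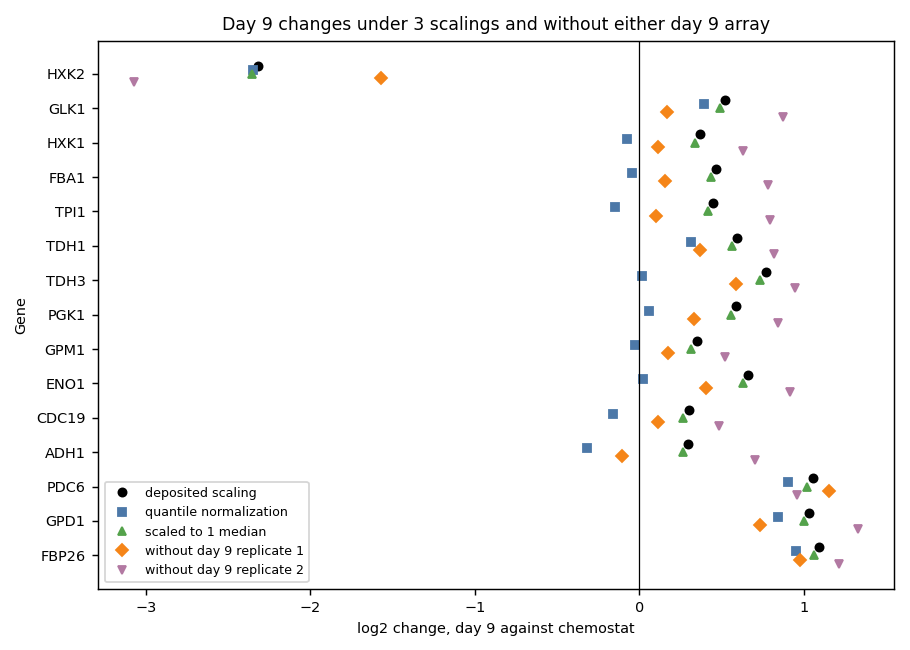
Fitted log2 change on day 9 against the chemostats (horizontal axis, no shift by the median) for 15 genes of the set, with the deposited scaling, after quantile normalization, after scaling to the same median, and without either day 9 array. HXK2, PDC6, GPD1 and FBP26 keep their sign under all 5, while the points of TDH3, PGK1 and ENO1 lie between 0.02 and 0.06 after quantile normalization.

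The second enolase gene was called lower on day 16. ENO2, which is known for induction by glucose, read 7854, 7341 and 7836.5 in the chemostats, 7672 and 7433 on day 9, 6265 and 4605.5 on day 16, and 6469 and 4875 on day 22. The arrays of days 16 and 22 lay below all chemostats, and replicate 2, of low actin ratio, was the lower on both days. ENO2 fell by 0.65 ± 0.18 on day 16 (adjusted p = 0.0430) and had a change of -0.68 ± 0.18 on day 22 (adjusted p = 0.0654). The day 16 call ended without any 1 chemostat, without either day 2 array, without day 16 replicate 2, without the low-actin arrays and with the actin covariate. GPM1 (phosphoglycerate mutase) and CDC19, the main pyruvate kinase, were not called on any day and read 6459 to 9960 and 6599.9 to 9823.

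PYK2, the pyruvate kinase repressed by glucose, rose on day 16. It read 247, 222 and 249 in the chemostats, 263 and 243 on day 2, 405.5 and 257 on day 9, 398 and 422 on day 16, and 319 and 360.3 on day 22. Both arrays of days 16 and 22 lay above all chemostats. The change was 0.64 ± 0.19 on day 16 (adjusted p = 0.00906). The call ended without day 16 replicate 2, without the low-actin arrays and with the actin covariate. The probe sets shared by TDH2 with TDH3, by TDH2 with TDH1 and TDH3, and by ENO1 with ENO2 had untested log2 differences of 0.19, 0.52 and 0.50 on day 9 and of -0.31, 0.08 and -0.05 on day 22, so TDH2 itself cannot be given a value.

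Among the pyruvate decarboxylases, the main gene fell and the minor gene PDC6 rose. PDC1, which encodes the predominant enzyme of ethanol formation at this step, read 5397, 5164 and 4374 in the chemostats, 4482 and 4039 on day 2, 3988 and 3450 on day 9, 2420.5 and 3060.2 on day 16, and 2556 and 2268 on day 22. Arrays from days 9, 16 and 22 lay below all chemostats, and those of days 16 and 22 below all arrays of days 2 and 9. PDC1 fell by 1.00 ± 0.17 on the log2 scale on day 16 (adjusted p = 0.00290) and by 1.27 ± 0.17 on day 22 (adjusted p = 0.000899). Both calls held under all 24 alternatives, with adjusted p up to 0.0309 and 0.0372.

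PDC6, an isoenzyme that contributes little under ordinary growth and is known for induction when sulfur is scarce, read 325, 312 and 387 in the chemostats, 596 and 678 on day 2, 659.7 and 756 on day 9, 801 and 633 on day 16, and 737 and 577 on day 22. All 8 retentostat arrays lay above all 3 chemostats, and the F test over the 4 days did not pass (limma, adjusted p = 0.859). The log2 change was 0.86 ± 0.18 on day 2 (adjusted p = 0.0420), 0.99 ± 0.18 on day 9 (adjusted p = 0.00162), 0.93 ± 0.18 on day 16 (adjusted p = 0.00130) and 0.71 ± 0.18 on day 22 (adjusted p = 0.00233). The calls of days 9, 16 and 22 held under all 24 alternatives. The day 2 call held under 11 of 24 (adjusted p from 0.0246 to 0.194) and ended without the low-actin arrays, without chemostat replicate 1 or 2 and without any single array of days 2, 16 or 22.

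PDC5, the isoenzyme known to take over when PDC1 is lost, passed the test over the 4 retentostat days with the deposited scaling. It read 150.3, 143 and 117 in the chemostats, 117 and 121 on day 2, 109 and 114 on day 9, 161 and 173 on day 16, and 202 and 173 on day 22. The arrays of days 16 and 22 lay above all others. The change on day 22 was 0.22 ± 0.16 relative to the median (interval -0.13 to 0.57), and its call (adjusted p = 0.0389, unshifted) ended under quantile and median scaling, without the low-actin arrays, with the actin covariate, without either day 22 array, without chemostat replicate 2 or 3, and with the replicate number as a block (adjusted p = 0.114). Over the 4 retentostat days limma's F test gave an adjusted p of 0.0365, and this call too ended under quantile and median scaling and both actin settings, in a fit to those days alone, and without any single array other than chemostat replicate 3 and day 9 replicate 2. PDC2, the transcription factor that activates PDC1 and PDC5, read 159 to 309 and was not called on any day.

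Of the 5 alcohol dehydrogenase genes, only ADH2 was called. ADH1, the main enzyme that reduces acetaldehyde to ethanol, read 8024 to 16334 over the arrays and was not called on any day. ADH2, known for glucose repression and for oxidising ethanol, read 58.1, 40.6 and 84.4 in the chemostats, 48.3 and 54.4 on day 2, 85.2 and 76.7 on day 9, 125 and 113 on day 16, and 136.5 and 141 on day 22. Arrays from days 16 and 22 lay above all chemostats, which differed among themselves from 40.6 to 84.4. ADH2 rose by 0.89 ± 0.25 on day 16 (adjusted p = 0.00856) and by 1.02 ± 0.25 on day 22 (adjusted p = 0.00275). Both calls ended without the low-actin arrays, the day 16 call also without day 16 replicate 1 and the day 22 call also with the actin covariate. With the replicate number as a block ADH2 was also called on day 9 (adjusted p = 0.0176). That block sets chemostats 1 and 2 beside retentostats 1 and 2, a pairing the labels do not state, and takes chemostat 3, the highest for ADH2, out of the contrast. Leaving out chemostat replicate 3 gave the same day 9 call, and no other alternative did.

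ADH3, the mitochondrial enzyme, had a single outlying array. It read 326 on day 2 replicate 1 and 2590 to 3765.5 on the other 10 arrays, and its change on day 2 was -1.78 ± 0.61 (adjusted p = 0.185). As fitted without that array, the change was -0.25. ADH4, an enzyme known for its response to zinc shortage, read 301.5 to 425.5, and ADH5, a minor isoenzyme, 1028 to 1493. Neither was called, although ADH4 passed on day 16 under 9 of 24 alternatives.

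Glycerol formation changed in both of its steps, in different ways. GPD1, the glycerol 3-phosphate dehydrogenase known for induction by osmotic stress, read 1396, 1168 and 1604 in the chemostats, 1863 and 2101 on day 2, 3468.5 and 2291 on day 9, 1757 and 1637 on day 16, and 1559 and 1374 on day 22. It was highest on day 9, and on day 22 the arrays lay within the range of the chemostats. The change was 0.97 ± 0.20 on day 9 (adjusted p = 0.00328) and -0.14 ± 0.20 on day 22 (adjusted p = 0.765). The day 9 call held under all 24 alternatives, with adjusted p up to 0.0337. The change from day 9 to day 22, -1.11 ± 0.22, did not pass (adjusted p = 0.0640), and it passed with the culture as a random block (adjusted p = 0.0460, over all alternatives 0.0137 to 0.437).

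GPD2, the isoenzyme known for its role in anaerobic redox balance, read 263, 215 and 95.5 in the chemostats, 178 and 180.1 on day 2, 165 and 135.5 on day 9, 122 and 139 on day 16, and 96.3 and 76.1 on day 22. Chemostat replicate 3 lay as low as day 22, so the groups overlapped. GPD2 fell by 1.27 ± 0.34 on day 22 (adjusted p = 0.0319). The call held under 14 of 24 alternatives, with adjusted p from 0.000467 to 0.366, and ended without the low-actin arrays, with the actin covariate, without chemostat replicate 1 or 2 and without any single array of days 16 or 22. With the replicate number as a block GPD2 was called lower at days 9 and 16 too (adjusted p = 0.0217 and 0.00662), as it was without chemostat replicate 3, the low array that this block takes out of the contrast, and under no other alternative.

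GPP1, the main glycerol 3-phosphatase in anaerobic growth, read 1446, 1676 and 1374 in the chemostats, 1171 and 1219.7 on day 2, 656 and 1184 on day 9, 798 and 774 on day 16, and 843 and 612 on day 22. All 8 retentostat arrays lay below all 3 chemostats. GPP1 fell by 0.82 ± 0.24 on day 9 (adjusted p = 0.0285), by 1.06 ± 0.24 on day 16 (adjusted p = 0.0111) and by 1.29 ± 0.24 on day 22 (adjusted p = 0.00508). The day 9 call ended without day 9 replicate 1, without the low-actin arrays and without chemostat replicate 1 or 2. The calls of days 16 and 22 ended with the actin covariate and without the low-actin arrays. Without either day 16 array the day 16 call ended, and without day 22 replicate 2 the day 22 call. GPP2, the phosphatase known for induction by osmotic stress, read 103 to 157 over the arrays and was not called on any day.

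**Figure D3:**
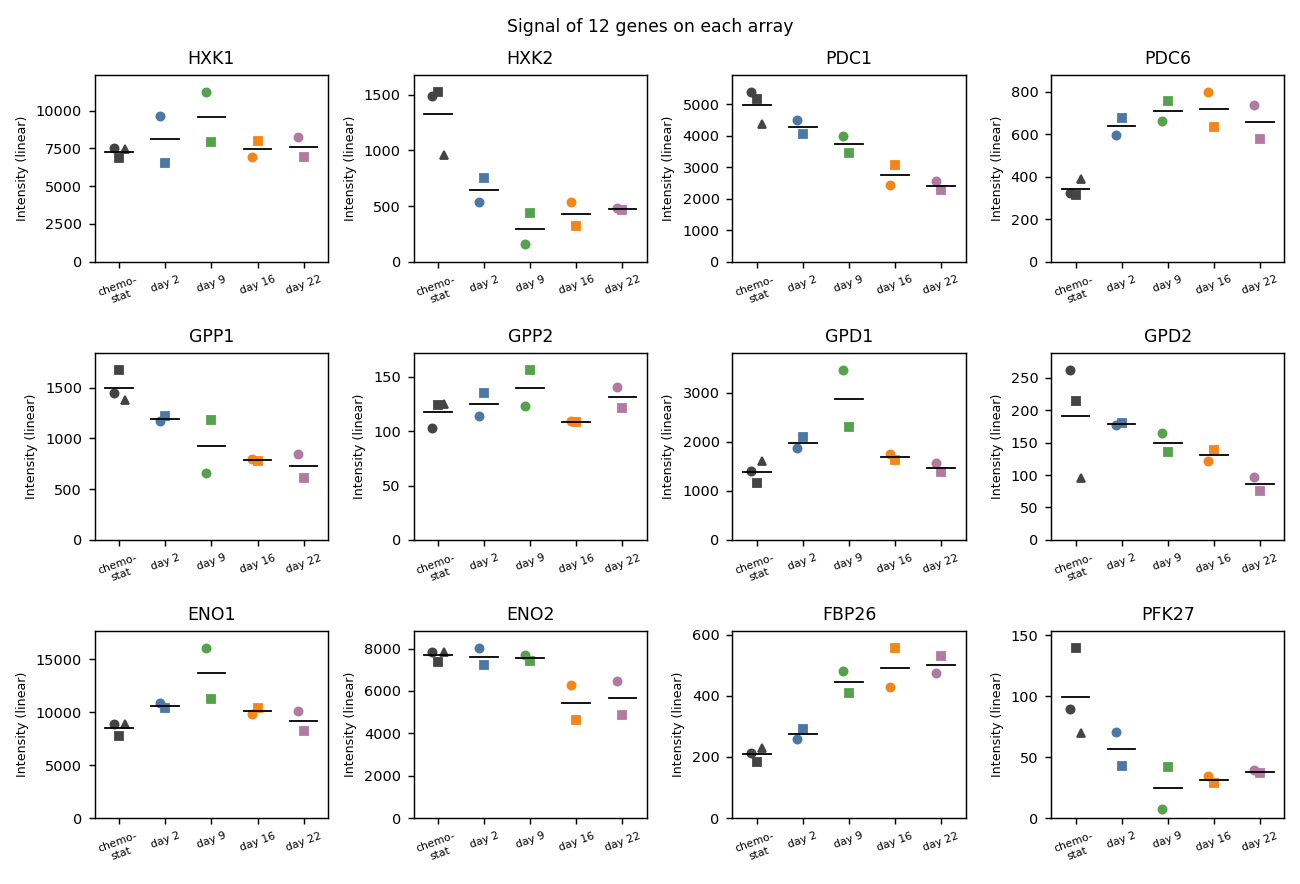
Deposited intensity (linear axis from 0) of 12 genes in the chemostats and at the 4 retentostat days, with circles for replicate 1, squares for replicate 2, triangles for replicate 3 and bars for group means. HXK2, PDC1, GPP1 and PFK27 have their retentostat means below the chemostat mean, PDC6 and FBP26 above it, and GPD1 peaks on day 9 with 3468.5 and 2291.

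The enzymes of fructose 2,6-bisphosphate, an activator of phosphofructokinase and inhibitor of gluconeogenesis, did not all move in the same direction. FBP26, the phosphatase that removes it, read 214, 184 and 228 in the chemostats, 259 and 291 on day 2, 482 and 409 on day 9, 428 and 557 on day 16, and 474 and 531.5 on day 22. Its retentostat arrays all lay above the chemostats, and those of days 9, 16 and 22 above those of day 2. FBP26 rose by 1.03 ± 0.18 on day 9 (adjusted p = 0.00106), by 1.10 ± 0.18 on day 16 (adjusted p = 0.000474) and by 1.04 ± 0.18 on day 22 (adjusted p = 0.000327). All of these calls held under all 24 alternatives, with adjusted p up to 0.0489.

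The 2 kinases that make the compound differed from each other. At days 16 and 22 PFK26 was called higher, as the phosphatase FBP26 was, and PFK27 lower. PFK27, whose transcript is known to be induced by glucose, read 89.5, 139.7 and 69.9 in the chemostats, 70.8 and 42.7 on day 2, 7 and 42.3 on day 9, 34.1 and 28.4 on day 16, and 39.3 and 36.9 on day 22. The arrays of days 9, 16 and 22 lay below all chemostats, and the value of 7 lay under the floor of 12 that was applied before the log. The change was -2.15 ± 0.45 on day 9 (adjusted p = 0.00526), -1.76 ± 0.45 on day 16 (adjusted p = 0.0166) and -1.56 ± 0.45 on day 22 (adjusted p = 0.0361). As fitted, the day 9 change was -2.09, or -1.18 without day 9 replicate 1 and -2.99 without replicate 2. The calls of days 16 and 22 ended without the low-actin arrays, with the actin covariate and with no floor. The day 22 call also ended with no filter on dim genes, and the day 9 call in a fit to the compared groups alone. Calls also ended without day 9 replicate 1 on day 9 and without either day 16 array or chemostat replicate 2 on day 16, while the day 22 call held under 14 of 24 alternatives and ended with the loss of chemostat replicate 1 or 2 or of any single array of days 16 or 22.

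PFK26, the other kinase, read 428, 385 and 391 in the chemostats, 409.6 and 467 on day 2, 518 and 541 on day 9, 569 and 506 on day 16, and 663 and 583 on day 22. Arrays from days 9, 16 and 22 lay above all chemostats. PFK26 rose by 0.28 ± 0.15 on day 16 (adjusted p = 0.0442, interval -0.04 to 0.61) and by 0.40 ± 0.15 on day 22 (adjusted p = 0.00635). The day 16 call ended under quantile and median scaling, without the low-actin arrays, without any 1 chemostat or either day 16 array, and with the replicate number as a block (adjusted p = 0.0902). The day 22 call ended only after median scaling, with adjusted p from 0.00268 to 0.0905 over the alternatives.

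Of the 4 regulators, GCR1 was the only one called. GCR1, the main activator of glycolytic genes, read 478, 412 and 479 in the chemostats, 535 and 480.3 on day 2, 355 and 352 on day 9, 273 and 355 on day 16, and 325 and 369.7 on day 22. The arrays of days 9, 16 and 22 lay below all chemostats and both arrays of day 2 above them. GCR1 fell by 0.69 ± 0.17 on day 16 (adjusted p = 0.0228), and had a change of -0.63 ± 0.17 on day 22 (adjusted p = 0.0766). The day 16 call ended without chemostat replicate 1 or 3, without day 16 replicate 1 and with the replicate number as a block (adjusted p = 0.0599). GCR2, its partner, read 107 to 129, and TYE7, a further activator of glycolytic genes, 108 to 155, and neither was called.

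Ratios between isoenzymes on the same array cancel a scale factor common to its genes, but not a shift that differs between bright and dim genes. Genes of the set with a chemostat mean over 4000 were higher on day 9 replicate 1 than on replicate 2 by a median of 0.51. For the other genes of the set the median was -0.03. The ratios show whether partners changed unequally, not which partner moved. After quantile normalization 7 ratios passed the test described next. Of 16 pairs tested with an exact two-sided permutation test, 3 chemostat against 8 retentostat arrays, 6 passed after Benjamini-Hochberg adjustment. In these 6 the arrays of the groups did not overlap. How often ratios of other gene pairs pass or separate was not counted, so the 6 are not set against a background. HXK1 over HXK2 was 3.39-fold higher in the retentostats, GLK1 over HXK2 3.64-fold, PDC6 over PDC1 3.09-fold and GPP2 over GPP1 1.82-fold, and the log2 ratio of PFK27 over PFK26 was lower by a change of -1.85. For these 5 the exact p was 0.00606, the smallest the 165 arrangements can give, with an adjusted value of 0.0194. ENO1 over ENO2 was 1.50-fold higher (exact permutation p = 0.0121, adjusted 0.0323). HXK1 over HXK2 was 0.63 to 3.70 above its chemostat mean on the log2 scale over the 8 retentostat arrays, and GPP2 over GPP1 0.31 to 1.34.

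The other 10 ratios did not pass. PDC5 over PDC1 lay at -0.07 to 0.27 on the arrays of days 2 and 9 and at 1.04 to 1.52 on those of days 16 and 22, and over all 8 arrays its exact permutation p was 0.0909 (adjusted 0.165). PYK2 over CDC19 lay at -0.01 to 0.28 and then at 0.49 to 0.67 (exact permutation p = 0.103, adjusted 0.165). GPD1 over GPD2 was 1.87-fold higher in the retentostats, with chemostat replicate 3 among the retentostat values (exact permutation p = 0.0364, adjusted 0.0831). EMI2 over GLK1, PFK1 over PFK2, TDH1 over TDH3 and the ratios of ADH2, ADH3, ADH4 and ADH5 to ADH1 did not pass, with log2 changes from -0.37 to 0.61. TDH2 over TDH3 could not be formed.

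The 8 retentostat arrays come from 2 cultures, so these p-values count samples of the same culture as separate. With each culture averaged over its days, 3 against 2, the smallest possible p is 0.1, and all 6 ratios reached it, as did EMI2 over GLK1 and PDC5 over PDC1. For the 6 ratios this is no added support, since arrays that do not overlap give culture means that do not overlap. The ratios of HXK1 and GLK1 to HXK2 share the fall of HXK2, so they are not separate results. No ratio passed when any 1 chemostat was left out, where the smallest possible p is 0.0222, or without day 9 replicate 2, and 3 passed without day 22 replicate 1.

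**Figure D4:**
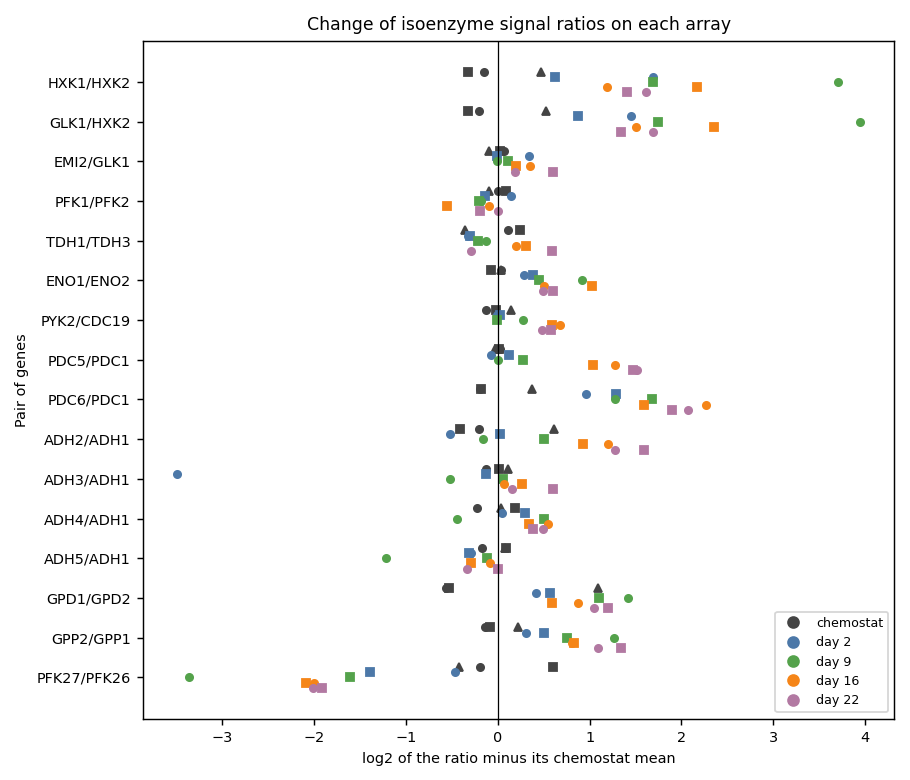
Log2 of the signal ratio of 16 gene pairs (rows) on each array, minus the chemostat mean of the ratio, coloured by group, with circles for replicate 1, squares for replicate 2 and triangles for replicate 3. All retentostat points of HXK1/HXK2, GLK1/HXK2, PDC6/PDC1, GPP2/GPP1 and ENO1/ENO2 lie to the right of the chemostat points, those of PFK27/PFK26 to the left, and those of PDC5/PDC1 at days 16 and 22 lie at 1.04 to 1.52.

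Neighbouring genes were counted in lists, and their calls were not rerun under the alternatives, the actin settings included. The counts are to be read against all genes, of which 22.4%, 26.6% and 31.8% were called higher at days 9, 16 and 22. Called lower on these days were 15.6%, 12.8% and 10.8% of all genes. Among 19 genes of other routes from pyruvate and acetaldehyde, 5 rose and 6 fell on day 9, 6 rose and 7 fell on day 16, and 4 rose and 8 fell on day 22 (median 0.01 relative to all genes). The largest rises on day 22 were ALD3, an aldehyde dehydrogenase (1.09 ± 0.31, adjusted p = 0.00650), and SFA1, a formaldehyde and alcohol dehydrogenase (0.73 ± 0.17, adjusted p = 0.00126). The largest falls were ADH6, an NADPH-dependent alcohol dehydrogenase (-2.10 ± 0.34, adjusted p = 0.00173), and ALD5, a mitochondrial aldehyde dehydrogenase (-1.91 ± 0.22, adjusted p = 0.000238). ALD6, the main cytosolic acetaldehyde dehydrogenase, and ALD4, its mitochondrial counterpart, were the 2 genes of this list called on day 2, both lower (-2.36 ± 0.21 and -1.21 ± 0.19, adjusted p = 0.000681 and 0.0191), and were named after their values were seen.

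Of 10 genes of glycerol transport and breakdown, 4 rose and 1 fell at each of days 9, 16 and 22. DAK2, a dihydroxyacetone kinase, read 1.5, 11.1 and 5.4 in the chemostats, all under the floor, and 43.8 and 49.4 on day 22. GCY1, a glycerol dehydrogenase, rose by 0.98 ± 0.31 on day 22 (adjusted p = 0.00978), and GUT2, the mitochondrial glycerol 3-phosphate dehydrogenase, fell by 1.00 ± 0.20 (adjusted p = 0.0119). Of 5 minor paralogues of lower glycolysis, 2 had a probe set of their own, and GPM2 rose on day 22 by 0.34 ± 0.18 (adjusted p = 0.0231). Of 8 other regulators, none rose and 3 fell on day 22, namely REB1 (-0.96 ± 0.22, adjusted p = 0.0233), MTH1 (-0.81 ± 0.17, adjusted p = 0.0176) and ABF1 (-0.76 ± 0.18, adjusted p = 0.0388).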

How the data were processed

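The deposited values are linear array intensities, made with GCOS 1.2 per the submitters' processing notes. For its settings and the genome build: not given in the sources used here. Trimmed means of the deposited values (2% off each end) agreed between arrays to 0.0218%, so no further scaling was applied. Of 9335 probe sets, 60 are controls, 6504 carry 1 gene, 328 several and 2443 none. A floor of 12 was applied to the deposited intensities before log2 transformation. Where a gene had several probe sets (315 genes), the one with the highest mean log2 value was kept, and 59 genes never above the floor were left out.

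For 5597 genes, limma 3.58.1 (R 4.3.3) estimated the 5 group means jointly, on 6 residual degrees of freedom with a prior of 4.85. P-values were adjusted by Benjamini-Hochberg over all genes, with a threshold of 0.05, and intervals are 95%. The scripts were tested on simulated data. The precision is limited by the number of arrays, 3 chemostats and 2 retentostats. All genes of the set are named, and from each neighbouring list up to 2 risen and 2 fallen genes with the largest change at day 22. ALD4, ALD6 and ABF1 were named in addition to this rule. The genes and lists were chosen with earlier results of these data known. Symbols were looked up in the RefSeq annotation of assembly R64, where all 36 matched.

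Replicate numbers pair the retentostat days, since the same 2 cultures were sampled each time. The labels do not tie chemostat numbers to retentostat numbers, so for contrasts with the chemostats the replicate block is a pairing by number only, in which chemostat 3 has no partner. The deviations of same-numbered arrays from their group means correlated at 0.0656 to 0.394 over 12 pairs, and the estimated correlation within a culture was 0.0787. The alternatives were other scalings, floors and filters, all probe sets of a gene, limma-trend, replicate or culture as a block, only the arrays compared, actin ratio settings, and leaving out each array.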

Additional observations from a re-analysis of the deposited data

How the results depend on the processing

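Each count of called genes was recomputed under 24 alternatives (23 for the test over all 5 groups, 18 for the ratios). Limits come from 2 retentostat cultures and from day 9 replicate 1. The single call at day 2 became 0 with median scaling, no floor, no filter on dim genes, with the 2 arrays of lowest actin ratio left out, and in a fit to the compared groups alone. The 11 calls at day 9 became 5 when the other groups were left out of the fit. Leaving out the 2 arrays of lowest actin ratio, and taking that ratio as a covariate, changed more: the calls were respectively 4 and 7 at day 16 (main 12), 4 and 4 at day 22 (main 10), 4 and 5 over the 5 groups (main 12), and 0 and 0 over the 4 retentostat days (main 4), where a fit to those days alone gave 1. Calls over all genes fell in both actin settings too, with the covariate to 1489 at day 16 (main 2206) and 555 at day 22 (main 2386). From day 2 to day 9, 1 gene (FBP26) was called with median scaling, a floor of 50, a mean of at least 50, limma-trend or the culture block. From day 9 to day 22, 1 was called with median scaling, 1 with a floor of 50 and 2 with the culture block. Of the 6 ratios that passed, 0 did with cultures averaged, where the smallest possible p of the permutation test is 0.1. The causes of these shifts were not tested, apart from the fewer arrays in some settings.

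Leaving out each array gave 0 to 1 calls at day 2, 4 to 18 at day 9, 5 to 14 at day 16, 5 to 12 at day 22, 0 to 9 from day 2 to day 9, 0 to 10 from day 9 to day 22, 7 to 19 over the 5 groups, 0 to 12 over the 4 days, and 0 to 7 ratios. A retentostat day with 1 array left out keeps a single array, and calls over all genes moved in these settings too. For the ratios, leaving out a chemostat raised the smallest possible permutation p so far that this setting cannot decide. With the replicate number as a replicate block the calls were 1, 12, 11 and 9 at days 2, 9, 16 and 22. The calls that this block changed stand beside their genes. The sign of a change from the chemostats differed between scalings for 8, 9, 7 and 12 genes at days 2, 9, 16 and 22. None of these genes was called on the same day with the deposited scaling, though TDH3, ENO1, PGK1 and GPD1, called on day 9, were among those of day 22, and TDH3 among those of day 16. None of the called results reversed under the alternatives run.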
